A study of Mus musculus with 24 samples.

Results

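The water channels (aquaporins) and the urea transporter of the mouse distal nephron are described here: Aqp1, Aqp2, Aqp3, Aqp4, Aqp5, Aqp6, Aqp8, Aqp11 and Slc14a2. These 9 genes were taken with all 20 probe sets that name one of them and no other gene, out of 18194 genes and 45101 probe sets on the arrays. A gene's main value is that of its brightest probe set (by the mean of all 24 arrays), and no measured difference between groups entered that choice.

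The study asked how transcripts of the distal tubule vary over the day. Male C57BL/6J mice of 25 to 30 g lived for 2 weeks in a light-dark cycle with 12 h of each, and animals were taken at 4 h steps of zeitgeber time: ZT0 (lights on), ZT4, ZT8, ZT12 (lights off), ZT16 and ZT20. Either distal convoluted with connecting tubules (DCT/CNT) or cortical collecting ducts (CCD) were microdissected from collagenase-treated left kidneys, which gave 12 groups of segment and time. Each group had 2 pools of RNA, and equal amounts of RNA from 5 animals went into the pooling at each time. No genotype or drug distinguished the groups, and 10 ng of total RNA per pool was amplified before hybridisation. The age of the mice is not stated. Neither is whether the pools of a group, or the segments of a time, shared animals, so the p-values below describe pools, not animals. Those of the segment comparison rest on the spread between the pools of a group. Those of the 24 h cosine fits rest on that spread and on how far group means lie from the fitted curve.

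Aquaporins are membrane channels that let water, and in some members glycerol, urea or other small solutes, pass. In the collecting duct, vasopressin acts through its V2 receptor and cyclic AMP to bring AQP2 to the apical membrane of principal cells and to raise Aqp2 transcription, while AQP3 and AQP4 in the basolateral membrane are the exit for that water. AQP6 sits in intracellular vesicles of acid-secreting intercalated cells, AQP1 is the constitutive channel of the proximal tubule, thin descending limb and vascular endothelium, AQP11 is found in the proximal tubule, and Slc14a2 encodes the UT-A urea transporters, which are best known from the inner medullary collecting duct and the thin limb.

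In the RefSeq table (GRCm38.p6), Aqp2, Aqp5 and Aqp6 are consecutive protein-coding genes on chromosome 15. Since Aqp2 and Aqp6 were called higher in CCD and Aqp5, which lies between them, higher in DCT/CNT, the 250 bases upstream of each annotated start are shown, 5′ to 3′ on the plus strand. They lie at chr15:99578806-99579055 for Aqp2, chr15:99590778-99591027 for Aqp5 and chr15:99600950-99601199 for Aqp6. Capitals mark the E-box CACGTG, the letters that CLOCK and BMAL1 can bind, in all 3, and in Aqp2 alone also CGTCA, the core letters of a cyclic AMP response element, and TTATCT, the reverse complement of the GATA motif AGATAA.
Aqp2: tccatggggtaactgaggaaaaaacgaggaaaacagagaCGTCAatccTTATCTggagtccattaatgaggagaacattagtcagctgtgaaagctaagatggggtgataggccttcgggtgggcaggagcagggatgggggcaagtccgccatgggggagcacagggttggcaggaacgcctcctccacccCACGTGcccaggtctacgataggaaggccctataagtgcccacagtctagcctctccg
Aqp5: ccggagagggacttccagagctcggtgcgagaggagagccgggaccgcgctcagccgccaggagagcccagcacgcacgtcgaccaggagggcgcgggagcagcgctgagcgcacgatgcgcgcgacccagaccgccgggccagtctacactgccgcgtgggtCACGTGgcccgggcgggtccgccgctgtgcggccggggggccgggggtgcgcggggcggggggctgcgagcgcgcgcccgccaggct
Aqp6: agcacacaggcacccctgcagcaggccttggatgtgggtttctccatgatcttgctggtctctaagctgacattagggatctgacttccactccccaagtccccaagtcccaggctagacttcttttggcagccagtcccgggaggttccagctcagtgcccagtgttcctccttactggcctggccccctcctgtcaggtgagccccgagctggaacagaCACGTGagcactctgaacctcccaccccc
RefSeq promoters were at hand for 7 of the 9 genes, 1 promoter each. Read on both strands, CACGTG was in 4 of the 7 (Aqp2, Aqp5, Aqp6 and Aqp8) and in 6.02% of the 32851 promoter windows of that length in the table. It lay 58 to 53 bases before the start of Aqp2, 87 to 82 before Aqp5, 29 to 24 before Aqp6 and 75 to 70 before Aqp8. CGTCA and AGATAA, found only in the Aqp2 window among the 7, were in 17.8% and 9.99% of all windows. The full element TGACGTCA (1.55% of all windows) and the D-box TTANNTAA (5.43%) were in none of the 7. No motif overlapped another, and a match describes letters in the window, not a bound site.

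All values are RMA values on the log2 scale, so a difference of 1 is a 2-fold difference. Array medians ran from 5.80 to 5.89 in DCT/CNT and from 5.83 to 5.87 in CCD. The spread of values within an array was narrower in DCT/CNT (interquartile range 3.32 to 3.65) than in CCD (4.08 to 4.28). Beside that, dim genes read higher in DCT/CNT and bright genes higher in CCD: relative to the median gene, with all genes ordered by mean level and cut into 4 equal classes, the median differences were 0.43, 0.27, -0.27 and -0.30 from the dimmest to the brightest class. Differences between segments are therefore given as DCT/CNT minus CCD relative to the median gene (-0.13 as deposited) and were also computed under other scalings. The principal cell and DCT markers followed the labelled dissection. The mean of 6 principal cell markers was 10.10 to 10.50 in the DCT/CNT pools and 11.61 to 11.78 in the CCD pools, and that of 3 DCT markers was 7.81 to 10.72 and 5.40 to 6.30. Proximal tubule markers, 12 genes of a segment that was not dissected, were present in both (7.03 to 8.64 and 6.93 to 8.65). Within DCT/CNT, the DCT marker mean varied between pools and times. It was 10.37 and 8.15 at ZT0, 7.93 and 8.03 at ZT8, 9.64 and 10.44 at ZT12, and 7.81 and 10.72 at ZT16. Its part in the DCT/CNT rhythms was not tested.

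**Figure D1:**
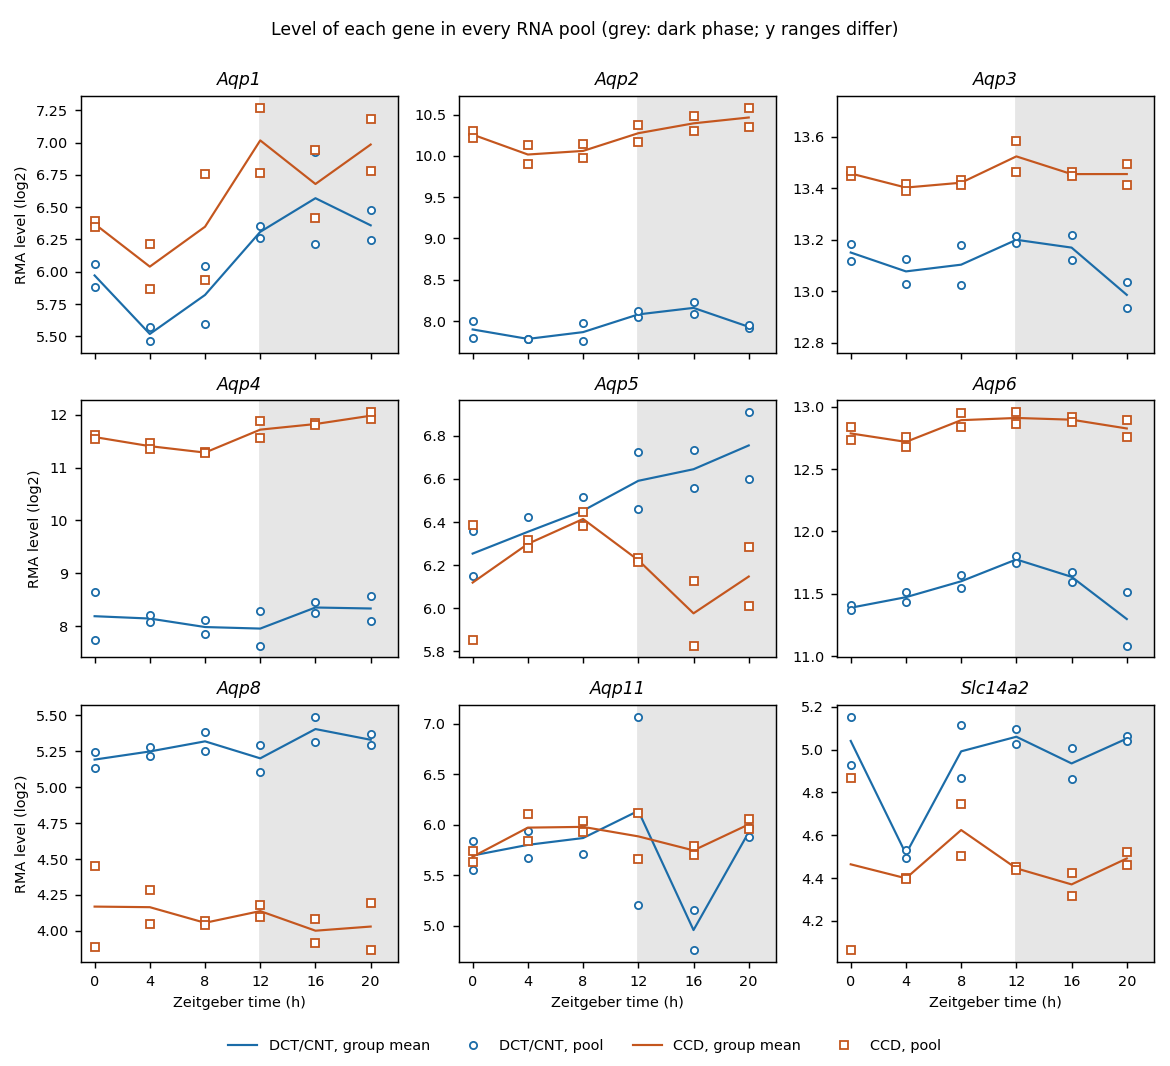
RMA level (log2) of each gene in every RNA pool against zeitgeber time, with open symbols for pools, lines for group means of 2 pools, and the dark phase in grey. CCD lies above DCT/CNT at every time for Aqp2, Aqp3, Aqp4 and Aqp6, and below it for Aqp8; Aqp1 is lowest at ZT4 in both segments.

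Between the segments, the principal cell channels Aqp4 and Aqp2 differed most: Aqp4 was 10.1-fold and Aqp2 4.49-fold higher in CCD relative to the median gene. Aqp6 was 2.27-fold, Aqp1 1.28-fold and Aqp3 1.16-fold higher in CCD, while Aqp8 was 2.49-fold, Slc14a2 1.51-fold and Aqp5 1.35-fold higher in DCT/CNT. Of the 9 genes, 8 passed an adjusted p of 0.05 in limma, 5 higher in CCD and 3 higher in DCT/CNT. In 5 of the 9, and in 27.8% of all genes, the 12 arrays of 1 segment lay entirely above the 12 of the other. Of all genes, 77.2% passed (38.7% higher in CCD and 38.5% higher in DCT/CNT), so a count of 8 is near what any 9 genes of this array would give, and the sizes carry more than the calls. The median difference of the 9 was -0.21, against 0 for all genes by construction. In dissected tubules, more cells of a type and more RNA per cell cannot be told apart.

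Aqp4, the basolateral water channel of principal cells, had the largest difference of the 9. Its DCT/CNT pools read 7.75 and 8.64 at ZT0, 8.21 and 8.09 at ZT4, 8.12 and 7.86 at ZT8, 8.28 and 7.64 at ZT12, 8.46 and 8.26 at ZT16, and 8.10 and 8.58 at ZT20. Its CCD pools read 11.61 and 11.54 at ZT0, 11.46 and 11.34 at ZT4, 11.29 and 11.28 at ZT8, 11.56 and 11.87 at ZT12, 11.84 and 11.80 at ZT16, and 11.91 and 12.05 at ZT20. Every CCD pool was above every DCT/CNT pool; 19.4% of all genes have their 12 CCD arrays all above the 12 of DCT/CNT. The difference was -3.34 (SE 0.10, 95% interval -3.55 to -3.12, limma adjusted p = 7.65e-13). The further 2 probe sets of Aqp4, fitted with all probe sets, gave -2.93 and -3.33 beside -3.40 for the main one.

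Aqp2, the vasopressin-regulated apical channel, read 7.80 and 8.0 at ZT0 in the DCT/CNT pools, 7.78 and 7.79 at ZT4, 7.76 and 7.98 at ZT8, 8.04 and 8.12 at ZT12, 8.23 and 8.08 at ZT16, and 7.91 and 7.95 at ZT20. Its CCD pools read 10.31 and 10.21 at ZT0, 10.13 and 9.91 at ZT4, 9.98 and 10.14 at ZT8, 10.17 and 10.38 at ZT12, 10.30 and 10.49 at ZT16, and 10.35 and 10.59 at ZT20. The segments were apart at every time, with the gap between group means, as deposited, smallest at ZT8 and ZT12 (2.20) and largest at ZT20 (2.54). The difference was -2.17 (SE 0.05, 95% interval -2.28 to -2.06, limma adjusted p = 1.86e-13). Aqp2 has 1 probe set here.

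Aqp3, the basolateral channel that also passes glycerol, was nearly level. In DCT/CNT it read 13.12 and 13.18 at ZT0, 13.03 and 13.13 at ZT4, 13.03 and 13.18 at ZT8, 13.19 and 13.21 at ZT12, 13.22 and 13.12 at ZT16, and 12.93 and 13.04 at ZT20. In CCD it read 13.45 and 13.47 at ZT0, 13.42 and 13.39 at ZT4, 13.43 and 13.41 at ZT8, 13.46 and 13.59 at ZT12, 13.46 and 13.45 at ZT16, and 13.41 and 13.50 at ZT20. The CCD pools were all above the DCT/CNT pools, by a difference of -0.21 (SE 0.04, limma adjusted p = 6.69e-05). This direction depended on what it was set against. Among the brighter 9097 genes alone, whose own median lies lower, it turned to 0.09 (limma adjusted p = 0.0242), and under cyclic loess it was -0.10. The probe sets disagreed in size and sign: in the fit of all probe sets they gave -0.28, -0.32, -1.29 and, for the dimmest (mean level 5.22), 0.49.

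Aqp6, the vesicular channel of intercalated cells, read 11.41 and 11.37 at ZT0 in DCT/CNT, 11.51 and 11.44 at ZT4, 11.65 and 11.55 at ZT8, 11.81 and 11.75 at ZT12, 11.68 and 11.59 at ZT16, and 11.08 and 11.51 at ZT20. In CCD it read 12.84 and 12.73 at ZT0, 12.76 and 12.68 at ZT4, 12.83 and 12.95 at ZT8, 12.86 and 12.96 at ZT12, 12.92 and 12.87 at ZT16, and 12.76 and 12.89 at ZT20. No CCD pool reached down to a DCT/CNT pool. The difference was -1.18 (SE 0.05, limma adjusted p = 1.87e-11), and its further 3 probe sets gave -2.02, -1.41 and -2.06 beside -1.25 for the main one in the fit of all probe sets. Beside it, the mean of 3 type A intercalated cell markers was 11.08 to 11.53 in DCT/CNT and 11.79 to 11.95 in CCD. Of these 3, 2 were called higher in CCD, and Atp6v0d2 was not called (-0.07, limma adjusted p = 0.108). The mean of 2 markers of both intercalated types overlapped, at 10.40 to 11.06 in DCT/CNT and 10.57 to 10.98 in CCD. Of these 2, Foxi1 was higher in CCD (-0.53) and Atp6v1b1 higher in DCT/CNT (0.40). The part of intercalated cell content in the Aqp6 difference was not tested.

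Aqp8, a channel that also passes ammonia, stood out in the other direction. Its DCT/CNT pools read 5.25 and 5.14 at ZT0, 5.28 and 5.22 at ZT4, 5.39 and 5.25 at ZT8, 5.11 and 5.29 at ZT12, 5.49 and 5.32 at ZT16, and 5.37 and 5.29 at ZT20. Its CCD pools read 3.88 and 4.45 at ZT0, 4.28 and 4.05 at ZT4, 4.07 and 4.04 at ZT8, 4.18 and 4.10 at ZT12, 4.09 and 3.92 at ZT16, and 4.19 and 3.87 at ZT20. All DCT/CNT pools were above all CCD pools, which holds for 8.43% of all genes. The difference was 1.32 (SE 0.07, limma adjusted p = 1.20e-10). It stayed called at 0.87 under quantile and 0.90 under cyclic loess normalization. Both levels are in the dim part of the arrays, where the median gene itself was 0.43 higher in DCT/CNT.

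Slc14a2, the urea transporter, read 5.15 and 4.93 at ZT0 in DCT/CNT, 4.53 and 4.49 at ZT4, 5.12 and 4.87 at ZT8, 5.03 and 5.10 at ZT12, 4.86 and 5.01 at ZT16, and 5.06 and 5.04 at ZT20. Its CCD pools read 4.06 and 4.87 at ZT0, 4.40 and 4.40 at ZT4, 4.75 and 4.50 at ZT8, 4.45 and 4.44 at ZT12, 4.32 and 4.42 at ZT16, and 4.52 and 4.46 at ZT20. Both DCT/CNT pools were above both CCD pools at all 6 times, although the lowest DCT/CNT pools (ZT4) were below the highest CCD pool (ZT0). The difference was 0.59 (SE 0.07, limma adjusted p = 2.94e-06), where the median of its class of dim genes was 0.43. It fell to 0.14 under quantile normalization (adjusted p = 0.0725) and 0.18 under cyclic loess (adjusted p = 0.0246).

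Aqp5, best known from salivary and lacrimal glands and lung, read 6.36 and 6.15 at ZT0 in DCT/CNT, 6.42 and 6.29 at ZT4, 6.39 and 6.52 at ZT8, 6.46 and 6.72 at ZT12, 6.73 and 6.56 at ZT16, and 6.91 and 6.60 at ZT20. In CCD it read 5.85 and 6.38 at ZT0, 6.32 and 6.28 at ZT4, 6.45 and 6.38 at ZT8, 6.23 and 6.21 at ZT12, 5.83 and 6.13 at ZT16, and 6.01 and 6.29 at ZT20. The segments overlapped at ZT0, ZT4 and ZT8 and were apart, with DCT/CNT higher, at ZT12, ZT16 and ZT20. The mean difference was 0.44 relative to the median gene (SE 0.07, limma adjusted p = 3.38e-05) and 0.31 as deposited. On the relative scale, the median of its class of genes by mean level was 0.27. The deposited gaps between group means were 0.04 to 0.13 at ZT0 to ZT8 and 0.37 to 0.67 at ZT12 to ZT20.

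Aqp11, an intracellular channel, was the only one of the 9 not called. Its 12 DCT/CNT pools ran from 4.76 through a median of 5.77 to 7.07, and the CCD pools from 5.63 through 5.88 to 6.11. The group means from ZT0 to ZT20 were 5.70, 5.80, 5.87, 6.14, 4.96 and 5.93 in DCT/CNT and 5.68, 5.97, 5.98, 5.89, 5.75 and 6.00 in CCD. The DCT/CNT pools of ZT12 alone read 7.07 and 5.21, so the widest spread in this segment lay within 1 group. The difference was -0.02 (SE 0.16, 95% interval -0.35 to 0.31, limma adjusted p = 0.905), and an interval of that width does not show that the segments were alike. Its 2 further, dimmer probe sets gave 0.64 and 0.36, both called. Their levels are in the range of the dimmest class of genes, whose median difference was 0.43. Without the high ZT12 pool the difference was -0.18 (adjusted p = 0.0455), and without its partner 0.14 (adjusted p = 0.116).

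**Figure D2:**
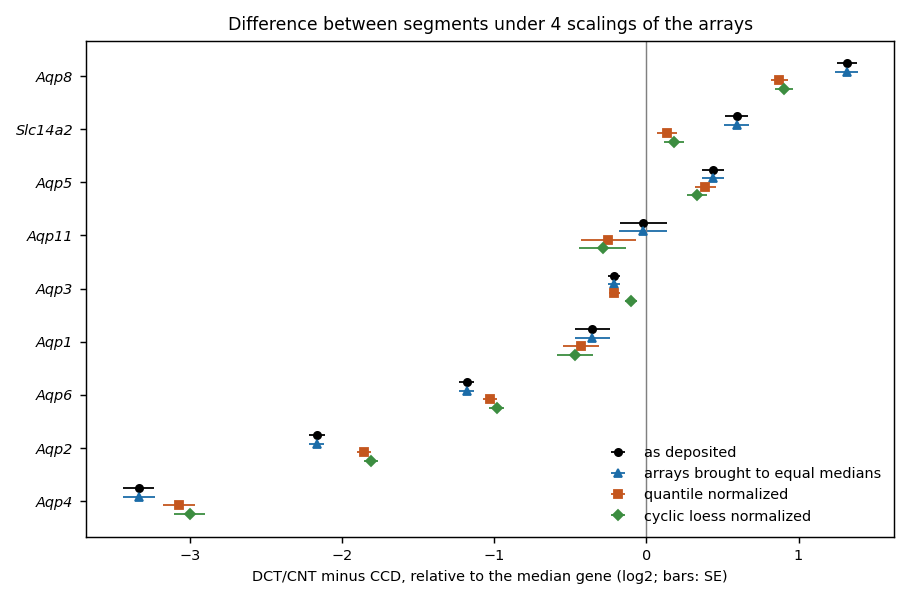
DCT/CNT minus CCD relative to the median gene (log2, bars are SE) for the main probe set of each gene under 4 scalings of the 24 arrays. Aqp4, Aqp2 and Aqp6 stay far below 0 and Aqp8 far above it, while Slc14a2 falls from 0.59 to 0.14 under quantile normalization.

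Over the day, 3 of the genes were called rhythmic in a segment: Aqp1 and Aqp6 in DCT/CNT, and Aqp2 in CCD. Rhythm was tested with a 24 h cosine fit, in which amplitude is the fitted distance from mean to peak. Calls in DCT/CNT were 2 of 9, where 6.57% of all genes passed, and in CCD 1 of 9, where 2.47% passed. The median amplitude of the 9 genes was 0.19 in DCT/CNT and 0.09 in CCD, against 0.13 and 0.10 over all genes. None of the 9 was called for a difference of rhythm between the segments (limma adjusted p under 0.05), where 0.011% of all genes passed. An unadjusted limma p under 0.05 was found for 1 of 9 (Aqp5) and for 1617 of all 18194 genes.

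Aqp1, the constitutive water channel, had the largest fitted amplitude in both segments. In DCT/CNT its pools read 6.06 and 5.88 at ZT0, 5.57 and 5.46 at ZT4, 6.04 and 5.60 at ZT8, 6.35 and 6.26 at ZT12, 6.92 and 6.22 at ZT16, and 6.47 and 6.24 at ZT20. In CCD they read 6.39 and 6.35 at ZT0, 6.22 and 5.86 at ZT4, 6.76 and 5.94 at ZT8, 7.27 and 6.76 at ZT12, 6.42 and 6.94 at ZT16, and 6.78 and 7.19 at ZT20. In DCT/CNT the 6 pools of ZT12 to ZT20 (6.22 to 6.92) were all above the 6 of ZT0 to ZT8 (5.46 to 6.06), which was true of 1 of the 9 genes and of 0.934% of all genes; in CCD they overlapped, 0 of the 9 genes had all dark-phase pools above all light-phase pools (0.709% of all genes), and none had the reverse in either segment (0.764% in DCT/CNT and 0.775% in CCD). The group means ordered ZT16, ZT20, ZT12, ZT0, ZT8, ZT4 in DCT/CNT, where pools of neighbouring times overlapped except between ZT12 and ZT0 and between ZT8 and ZT4.

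The Aqp1 amplitude in DCT/CNT was 0.50 (SE 0.11), a 2.0-fold trough-to-peak change with the peak at ZT 16.4 (limma adjusted p = 0.0273). In CCD it was 0.43 (SE 0.11) with the peak at ZT 15.97, and was not called (adjusted p = 0.108). The amplitudes and phases of the segments were not distinguished (adjusted p = 0.965 for the difference of rhythm). The call was lost without either DCT/CNT pool of ZT4, pool 2 of ZT8 or pool 1 of ZT16 (adjusted p of 0.0532 to 0.0857), and without the time ZT0, ZT4, ZT12 or ZT20 (0.0550 to 0.224). In the segment comparison Aqp1 was -0.36 (SE 0.12, 95% interval -0.60 to -0.11, limma adjusted p = 0.0109), with both CCD pools above both DCT/CNT pools at 4 times and overlap at 2.

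Markers of the proximal tubule, where Aqp1 is abundant, were examined beside it. Of the 12, 1 (Pck1) was called rhythmic in DCT/CNT and 0 in CCD in limma. Unadjusted limma p was under 0.05 for 4460 (DCT/CNT) and 2576 (CCD) of all 18194 genes, and for 6 and 2 of these 12 markers. Their mean in DCT/CNT was 7.43, 7.12, 7.10, 8.63, 7.84 and 8.01 from ZT0 to ZT20, with Aqp1 at 5.82 at ZT8 and 6.31 at ZT12. In CCD the mean was 7.58, 7.45, 7.75, 8.16, 7.95 and 8.04. The markers of 10 endothelial genes stayed between 7.62 and 7.89 in DCT/CNT and between 7.52 and 7.98 in CCD, and 3 erythrocyte markers between 3.18 and 3.89 and between 3.10 and 3.43. Within a group, the pool with more proximal tubule marker RNA was also the pool with more Aqp1 in 7 of 12 groups. These were 2 of 6 in DCT/CNT and 5 of 6 in CCD. The same count was 6 of 12 for endothelial markers, 6 of 12 for thin limb markers and 2 of 12 for erythrocyte markers. With the proximal tubule and thick ascending limb means as covariates, the DCT/CNT amplitude was 0.37 (limma adjusted p = 0.247) and the segment difference -0.29 (adjusted p = 0.172), neither of them called.

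**Figure D3:**
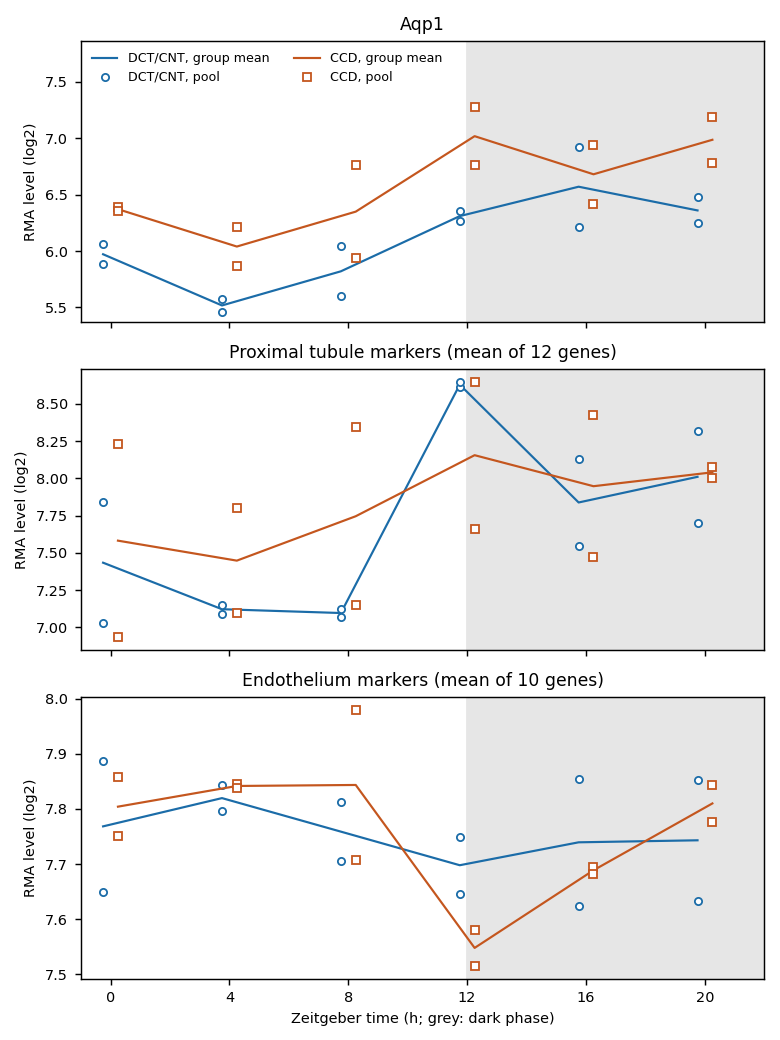
Level (log2) of Aqp1, of the mean of 12 proximal tubule markers and of the mean of 10 endothelial markers in every pool against zeitgeber time, with lines for group means and the dark phase in grey. Aqp1 in DCT/CNT is lowest at ZT4 and highest at ZT16, the proximal tubule mean steps from 7.10 at ZT8 to 8.63 at ZT12, and the endothelial mean moves by less than 0.5.

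Aqp6 in DCT/CNT rose from the pools of ZT0 (11.41 and 11.37) through ZT4 and ZT8 to ZT12 (11.81 and 11.75) and was lower again at ZT20. Its group means ordered ZT12, ZT16, ZT8, ZT4, ZT0, ZT20, and the pools were apart at 3 of these 5 steps. The amplitude was 0.21 (SE 0.05), a 1.34-fold change with the peak at ZT 11.3 (limma adjusted p = 0.0218). In CCD the amplitude was 0.09 (SE 0.05, peak ZT 13.4, adjusted p = 0.611); the difference of rhythm was not called (adjusted p = 0.654). Fitted with all probe sets, the main probe set and 1 further probe set of Aqp6 were called in DCT/CNT (adjusted p = 0.0371 and 0.0312), and the remaining 2 were not (0.199 and 0.145), with peaks between ZT 10.6 and 12.0 over all 4. Leaving out either DCT/CNT pool of ZT12 ended the call (adjusted p = 0.0628 and 0.0517), as did leaving out the time ZT0, ZT4, ZT12 or ZT16 (0.0627 to 0.194), DCT/CNT fitted alone (0.157) and the proximal tubule and thick limb covariates (0.0526).

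Aqp2 in CCD was lowest at ZT4 and ZT8 and highest at ZT20, with an amplitude of 0.23 (SE 0.05), a 1.37-fold change with the peak at ZT 18.0 (limma adjusted p = 0.0282). Its CCD group means ordered ZT20, ZT16, ZT12, ZT0, ZT8, ZT4, and only ZT0 and ZT8 among the neighbours had pools apart. In DCT/CNT the amplitude was 0.17 (SE 0.05, peak ZT 15.2, adjusted p = 0.0709), not called. It was called under quantile (adjusted p = 0.0126) and cyclic loess (0.0105) normalization, with dim genes left out (0.0323) and without DCT/CNT pool 2 of ZT0 (0.0468). The difference of rhythm between the segments was not called (adjusted p = 0.646). The CCD call was lost without pool 2 of ZT4, pool 1 of ZT8, pool 2 of ZT16 or pool 2 of ZT20 (adjusted p of 0.0750 to 0.0920), without any single time (0.0735 to 0.206) and with CCD fitted alone (0.0668). An F test over the 6 group means, which assumes no cosine, called none of the 3 rhythms (adjusted p of 0.168 for Aqp1, 0.139 for Aqp6 and 0.355 for Aqp2). With the proximal tubule and thick limb covariates, the Aqp2 call in CCD stayed (limma adjusted p = 0.0459). The pool with more principal cell marker RNA was the pool with more Aqp2 in 9 of 12 groups, and the pool with more Aqp4 in 8 of 12. The same count was 7 of 12 for Aqp6 with type A intercalated cell markers and 8 of 12 for Aqp11 with proximal tubule markers. The part of principal cell content in the Aqp2 values was not tested.

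Aqp4 in CCD followed a similar course by its values, from 11.29 and 11.28 at ZT8 to 11.91 and 12.05 at ZT20. Its fitted amplitude of 0.32 (SE 0.09, peak ZT 18.0, 1.56-fold) did not pass over all genes (limma adjusted p = 0.143). It passed with the mean of its 3 probe sets (0.0337) and with CCD fitted alone (0.0178). All 3 probe sets peaked between ZT 18.0 and 18.8 in CCD. In DCT/CNT the amplitude was 0.19 (SE 0.09, adjusted p = 0.347), with pools of 1 time up to 0.90 apart.

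Aqp3, the third principal cell channel, had amplitudes of 0.05 (SE 0.04, adjusted p = 0.605) in DCT/CNT and 0.04 (SE 0.04, adjusted p = 0.899) in CCD. Its highest and lowest group means differed by 0.21 in DCT/CNT and 0.12 in CCD.

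Aqp5 had the largest difference of rhythm between the segments among the 9 by size (0.35), though it was not called. Its group means rose at every step from 6.25 at ZT0 to 6.76 at ZT20 in DCT/CNT, while in CCD they were highest at ZT8 (6.41) and lowest at ZT16 (5.98). The fitted peaks were ZT 15.8 (amplitude 0.20, SE 0.07, limma adjusted p = 0.146) and ZT 6.57 (0.17, SE 0.07, adjusted p = 0.398). The difference of rhythm had a limma adjusted p = 0.421 over all genes (0.00639 before adjustment). The remaining genes gave no call. Aqp8 had amplitudes of 0.06 in both segments, Slc14a2 0.15 and 0.05, and Aqp11 0.23 and 0.06 in DCT/CNT and CCD. The adjusted p-values of these 3 genes lay between 0.422 and 0.985.

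**Figure D4:**
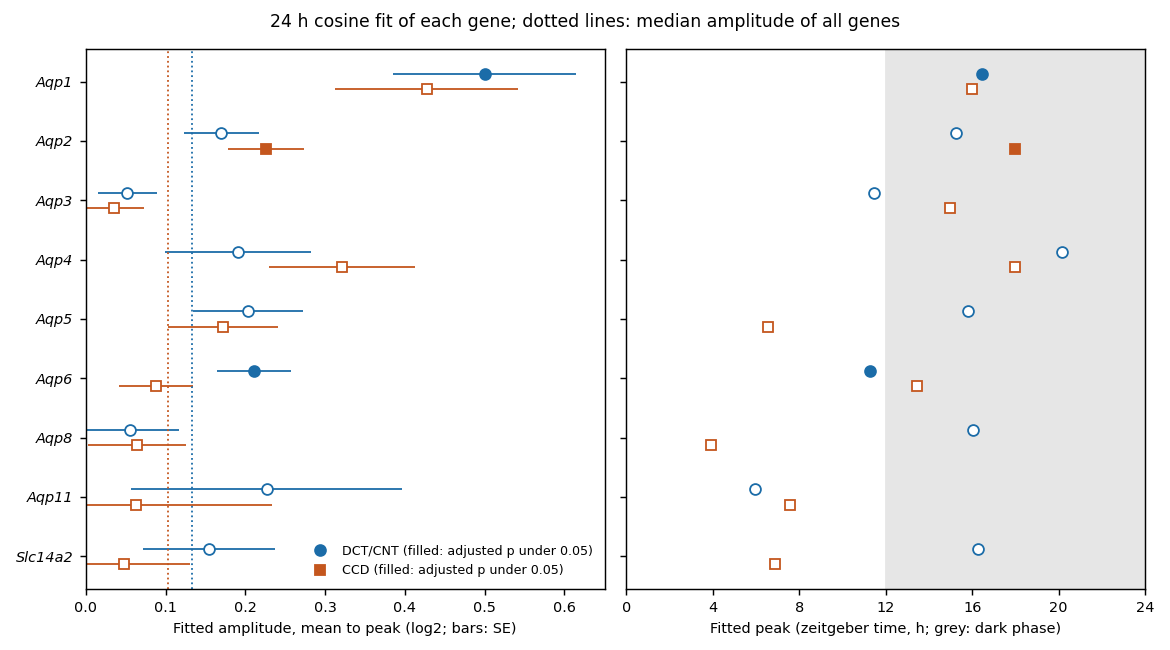
Fitted 24 h amplitude (left, log2, bars are SE) and fitted peak time (right) of each gene in DCT/CNT (circles) and CCD (squares), filled where adjusted p is under 0.05, with dotted lines at the median amplitude of all genes (0.13 and 0.10). Aqp1 and Aqp6 are filled in DCT/CNT and Aqp2 in CCD.

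The genes that act with the water channels were counted from 5 lists, with 43 genes measured. In all, 30 were called higher in CCD and 8 higher in DCT/CNT, with a median difference of -0.30, and the calls numbered 28 and 8 with equal medians, 22 and 6 under quantile and 19 and 9 under cyclic loess normalization. Of the 43, 28 lie in the brightest class of genes, whose own median was -0.30. Rhythm calls numbered 6 in DCT/CNT and 5 in CCD. The shares to read these against are the 38.7%, 38.5%, 6.57% and 2.47% of all genes given above.

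Of 13 vasopressin signalling genes, 7 were called higher in CCD and 4 higher in DCT/CNT. Avpr2, the V2 receptor, was 3.03-fold higher in CCD (-1.60, SE 0.05, limma adjusted p = 5.81e-13). Akap7, a protein kinase A anchor, gave -1.20, Adcy6, the main adenylyl cyclase of this pathway, -0.97, the transcription factor Creb1 -0.61 and the kinase subunit Prkaca -0.37. Pde4d, which breaks down cyclic AMP, was higher in DCT/CNT (0.61). The receptor genes were called rhythmic in both segments: Avpr2 with amplitudes of 0.40 (peak ZT 21.5, adjusted p = 0.000152) in DCT/CNT and 0.29 (peak ZT 20.05, adjusted p = 0.00639) in CCD, and Avpr1a with 0.62 (peak ZT 0.155, adjusted p = 0.000129) and 0.43 (peak ZT 0.250, adjusted p = 0.00661). Adcy3 was called in DCT/CNT alone (0.20, adjusted p = 0.0393).

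Of 9 measured transcription factors that act on Aqp2 or shape principal cells, 9 were called higher in CCD, and 9 also under each of the 3 other scalings. Elf5 was 11.6-fold (-3.54, SE 0.09), Gata3 2.10-fold and Gata2 2.02-fold, Ehf 1.91-fold, Grhl2 1.49-fold and Tfcp2l1 1.29-fold higher. Elf5 and Gata3 are also in the principal cell marker list. Ehf was called rhythmic in both segments, with amplitudes of 0.39 (peak ZT 8.29, limma adjusted p = 5.01e-05) and 0.22 (peak ZT 11.0, adjusted p = 0.0193), and Nfatc1 in DCT/CNT (0.48, peak ZT 8.62, adjusted p = 0.0135).

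Of 13 genes of AQP2 vesicle trafficking, 10 were called higher in CCD and 1 higher in DCT/CNT, with a median of -0.21. The differences were small: Ezr, a linker of membrane to actin, -0.38, the endosomal Rab5a -0.45, the target SNAREs Stx3 -0.58 and Stx4a -0.37, Vta1, which sorts vesicles to lysosomes, -0.48, and the vesicle SNARE Vamp2 0.48. With arrays brought to equal medians 9 were called higher in CCD and 1 higher in DCT/CNT, but the balance shifted to 4 and 3 under quantile and turned to 1 and 4 under cyclic loess normalization. Ezr was called rhythmic in CCD (0.16, limma adjusted p = 0.0406), and 0 of the 13 in DCT/CNT. There, 5 of the 13 had an unadjusted limma p under 0.05, as did 4460 of all 18194 genes.

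The 3 measured osmolyte genes were called higher in CCD: the inositol carrier Slc5a3 (-0.51), the taurine carrier Slc6a6 (-0.27) and the betaine carrier Slc6a12 (-0.18); 2 stayed called under each other scaling. Slc6a6 was called rhythmic in DCT/CNT (0.20, limma adjusted p = 0.0474) and CCD (0.26, adjusted p = 0.0217). Among 5 further family genes, the aquaglyceroporin Aqp7, the neighbour of Aqp3 on chromosome 4, was higher in CCD (2.0-fold, SE 0.28 on the log2 scale), and Slc14a1, the UT-B transporter gene next to Slc14a2 on chromosome 18 (0.62), Mip (0.55) and Aqp9 (0.34) were higher in DCT/CNT. Mean levels in DCT/CNT and CCD were 3.45 and 4.57 for Aqp7, 4.55 and 4.05 for Slc14a1, 3.72 and 3.29 for Mip, and 3.51 and 3.30 for Aqp9. These levels are in the dimmest class of genes, whose own median difference was 0.43, above that of Aqp9. With arrays brought to equal medians the calls were again 1 higher in CCD and 3 higher in DCT/CNT, but they were 2 and 0 under quantile and 2 and 1 under cyclic loess normalization. In limma, 0 of the 5 were called rhythmic in either segment. An unadjusted p under 0.05 was found for 2 in DCT/CNT and 1 in CCD, against 4460 and 2576 of all 18194 genes.

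**Figure D5:**
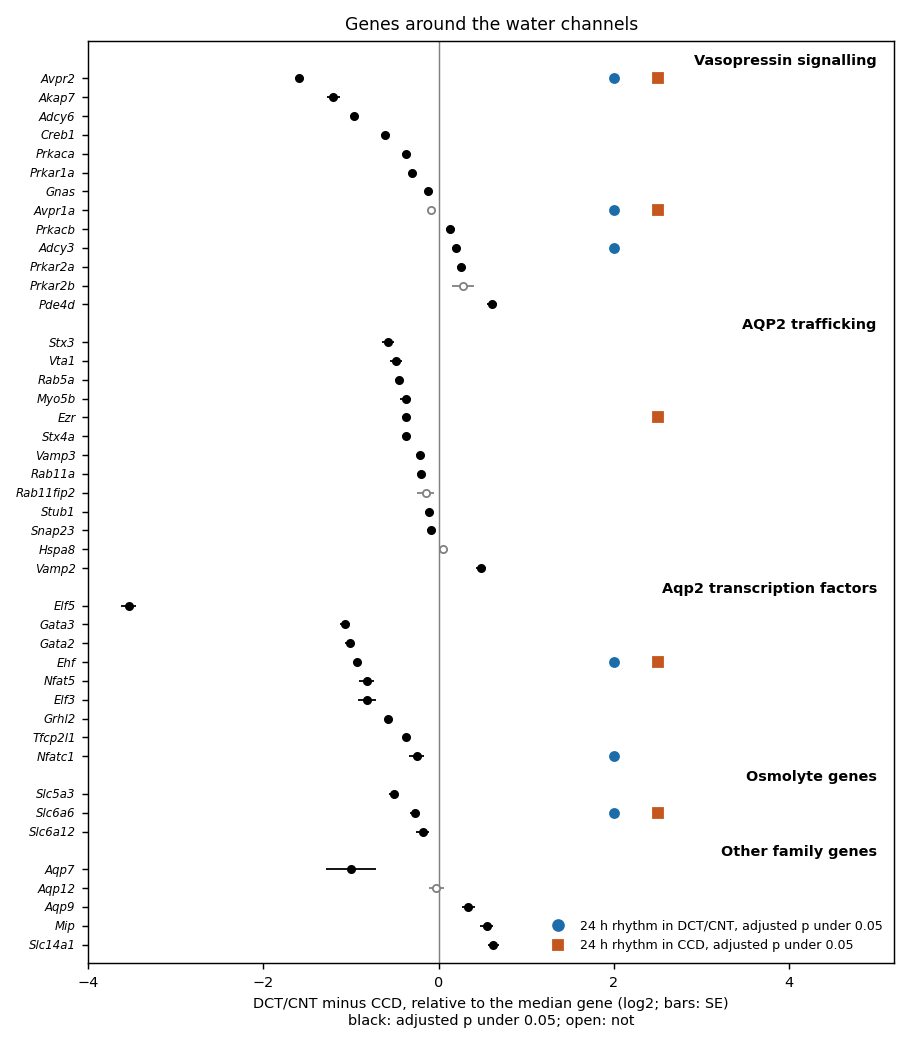
DCT/CNT minus CCD relative to the median gene (log2, bars are SE) for the 43 measured genes of the 5 lists, black where adjusted p is under 0.05, with a circle or square at the right, at no scale position, where the 24 h rhythm was called in DCT/CNT or CCD. All 9 transcription factors lie below 0, with Elf5 farthest at -3.54.

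Genes running like each principal cell channel were ranked by Pearson's r over 24 arrays, each segment centred on its own mean. Genes with a centred SD below the median over genes (0.20) and predicted genes were left out of the ranking. Aqp2 (0.17) and Aqp3 (0.07) lie below that median themselves, so genes as level as these could not be listed. Each array is 1 pool, and all genes of an array share its dissection and amplification, so r is a description. For Aqp2 the genes of highest r among those ranked were Ccn2 (0.84), Tsc22d3 (0.80), Mib1 (0.79), Cxcl12 (0.78) and Mapre2 (0.77). For Aqp4 they were Tbc1d8b (0.74), Bicd2 (0.73), Sult5a1 (0.73), Noct (0.71) and Tmem64 (0.71). For Aqp3, whose centred values had an SD of 0.07 against a median of 0.20 over genes, they were Nufip2 (0.78), Stk25 (0.76), Fam76a (0.74), Naa35 (0.74) and Irs2 (0.74). Between the members themselves, r was highest for Aqp1 with Aqp2 (0.62), Aqp3 with Aqp6 (0.61) and Aqp2 with Aqp3 and with Aqp4 (0.56 each), and was 0.13 for Aqp3 with Aqp4.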

How the data were processed

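Per the submitters' processing notes the arrays were processed with RMA (version not stated), and the authors' deposited values are on the log2 scale; whether both segments were normalized in 1 run is not given in the sources used here. Values were used as deposited, without a filter on dim genes. Of 45101 probe sets, 34958 name 1 gene symbol, 932 several and 9211 none in the platform table, and 18146 of 18194 genes matched RefSeq (GRCm38.p6). With limma 3.58.1 (R 4.3.3), rhythm was tested by a moderated F test on a cosine and a sine of 24 h per segment over 24 arrays (18 residual degrees of freedom), and segments by the contrast of 12 group means (12 residual degrees of freedom) relative to the median gene, both with Benjamini-Hochberg adjustment over 18194 genes and calls at adjusted p under 0.05. The fits were tested on simulated data with independent noise and the same spread of a gene in both segments. A rhythm of amplitude 0.2 was called in 18% of 50 genes given one in DCT/CNT and in 32% of 50 in CCD. At amplitude 0.5 the shares were 76% and 94%, again of 50 genes each. Since the spread was the same, these shares do not compare the segments. Fewer genes were given a rhythm than were called in the data, so the shares are a rough guide. A missing rhythm call at an amplitude near 0.2 therefore does not show that a rhythm was absent. No batch or date is given by the labels, and the number of arrays limits the precision. All members are named, with further genes by smallest adjusted p (at most 6 per list) or highest r (5). The ranking by r left out predicted genes and genes with a centred SD below the median over genes. The members and lists were chosen with earlier results of these data known. Alternatives were probe set, scaling, dim genes left out, variance model, array weights, covariates, segment alone, an F test over group means, and each array or time left out. The comparison of light-phase with dark-phase pools and of marker RNA between the pools of a group was added after seeing the data.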

Additional observations from a re-analysis of the deposited data

How the results depend on the processing

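The segment differences of Aqp1, Aqp2, Aqp4, Aqp5, Aqp6, Aqp8 and Slc14a2 kept their direction under every alternative run, and each of the 3 rhythm calls was lost under some of them. Of 1491 recomputed values of single genes, 1432 kept direction and side of the threshold, 35 lost a call, 10 gained one and 14 reversed. Most of the 1491 belong to results that were not called in the main fit, and most of the 35 fell on the 3 rhythm calls. Without 1 time, the DCT/CNT rhythm calls of Aqp1 and Aqp6 were each lost in 4 of 6 fits. The CCD rhythm call of Aqp2 was lost in 6 of 6. The reversals were Aqp3 against bright genes (0.087) and with its dimmest probe set (0.49), and Aqp11 with the mean of its probe sets (0.34), with probe set 2 (0.64) or 3 (0.36), with covariates (0.040), without ZT16 (0.11) and in 7 of 24 fits without 1 array (-0.18 to 0.14). With dim genes left out 4 members were called between segments instead of 8, since the filter kept only Aqp2, Aqp3, Aqp4 and Aqp6.

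For rhythm in DCT/CNT (2 members called), 0 were called with covariates, with an F test over the group means and without ZT0, ZT4 or ZT12, and 1 with the segment fitted alone and without ZT16 or ZT20; without 1 array it was 1 to 3. For CCD (1 called), 0 were called with the F test and without ZT0, ZT4, ZT8, ZT12 or ZT20, and 2 with array weights and with the mean of probe sets; without 1 array it was 0 to 2. Without ZT16 the 1 CCD call was Aqp1, not Aqp2. Without 1 array, 8 members were called between segments, or 9 in 1 fit (with Aqp11). Over all genes, rhythm calls in DCT/CNT (1195) were 450 with the F test, 713 with covariates, 788 with array weights, 226 with the segment alone and 565 to 788 without 1 time; CCD calls (449) were 117 with the F test, 702 with an intensity trend, 846 with weights, 677 with dim genes left out, 132 to 255 without 1 time and 242 to 477 without 1 array. Segment calls (14047) were 6312 with dim genes left out. The cause was not tested.

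A replicate block by pool number gave 1139 and 403 rhythmic genes and changed no member's call. Over 66 pairs of groups, the same-numbered pools' deviations correlated at a median of -0.00 (-0.21 to 0.17). Most of these pairs join different times, so the median does not decide whether the segments of a time shared animals.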
